A study of Mus musculus with 36 samples.

Results

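The 35 genes described here encode proteins of the lysosome in RAW264.7 cells, a mouse macrophage line. They were chosen by name as lysosomal hydrolases, lysosomal membrane proteins and subunits of the proton pump, with earlier results of these data known. All 35 were found by symbol among the 49568 gene rows of both count tables. By role they were 12 cathepsins and other proteases, 7 glycosidases, 5 genes of lipid breakdown and cholesterol export, 6 genes of the membrane, its channel and its regulator, and 5 genes of the pump. RAW264.7 cells had been cultured for 72 h with PBS or with 100 µg/ml of a synthetic peptide, 65–79*SE or 65–79*PE. Each peptide corresponds to residues 65–79 of a human HLA-DRβ chain. 65–79*SE carries the shared epitope, linked to risk of rheumatoid arthritis, and 65–79*PE carries the protective epitope. The study describes the peptides as coded by different HLA-DRB1 alleles and as differing in their amino acid sequence. One table held the arms with IFNγ, an M1 (pro-inflammatory) stimulus, and the other the arms with Il-4, an M2 (tissue repair) stimulus, each at 5 ng/ml. Each of the 6 groups had 6 RNA-seq libraries, numbered as replicates 1–6, so that 36 libraries were measured in 2 tables of 18. The study asked whether the effects of HLA-DRB1 alleles on macrophage polarization arise without antigen presentation and map to this stretch of the chain. All libraries came from 1 cell line. By the study's description the 6 libraries of a group are biological replicates from 2 independent experiments. The labels do not tie replicate numbers to an experiment, so libraries compared here may share an experiment.

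Lysosomes digest material that macrophages take up. Acid hydrolases, among them the cathepsins (proteases), glycosidases and lipases, work inside them at low pH, which the V-type proton pump maintains by moving protons inward with energy from ATP. Cathepsins also trim antigens and the invariant chain for presentation on MHC class II. TFEB, a transcription factor, binds a short palindrome called the CLEAR element in the promoters of many lysosomal genes, and MCOLN1 is a calcium channel of the lysosomal membrane that acts upstream of TFEB.

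Replicates 1–3 and 4–6 were named by different schemes in the labels and differed in library content, so every comparison was made within replicates 1–3 and within replicates 4–6. Total counts per library were 20.7 to 63.2 M in the IFNγ table and 17.05 to 30.6 M in the Il-4 table. Protein-coding genes held 85.2 to 85.8% of counts in replicates 1–3 and 62.1 to 69.9% in replicates 4–6 of the IFNγ table, and 95.4 to 97.5% and 78.7 to 87.4% in the Il-4 table. Rn7s genes held at most 0.0054% of counts in replicates 1–3 and 14.96 to 20.4% in replicates 4–6 of the IFNγ table. In the Il-4 table they held at most 0.0025% and 1.39 to 1.99%. Histone genes summed to 63.8 to 164 CPM in replicates 1–3 and 2596 to 7172 CPM in replicates 4–6 of the IFNγ table. In the Il-4 table they summed to 54.3 to 140 and 3426 to 14523 CPM. Libraries also differed within a set, with 14523, 8119 and 5310 CPM in PBS replicates 4, 5 and 6 of the Il-4 table. A list of 20 IFNγ response genes summed to 5668 to 6112 CPM (read counts relative to the library size, which TMM had scaled) in the libraries labelled 65–79*SE with IFNγ, replicates 1–3, and to 635 to 721 CPM in replicates 4–6. The sums in the same sets were 919 to 1095 and 845 to 1029 CPM in PBS and 7602 to 7764 and 5963 to 6529 CPM with 65–79*PE. The libraries labelled 65–79*SE with IFNγ, replicates 4–6, thus lay below PBS on this list and did not carry the response of the other peptide libraries. A list of Il-4 response genes summed to 262 to 269.8 and 166 to 187 CPM in PBS of the Il-4 table, against 332 to 384 and 216 to 265 CPM with 65–79*SE and 361 to 416 and 249 to 258 CPM with 65–79*PE. PBS titles name the cytokine of the table. PBS libraries lay below the peptide libraries on its list, except below those labelled 65–79*SE with IFNγ, replicates 4–6. Cytokine and peptide thus cannot be told apart in the other comparisons with PBS. For the exception, the treatment is not known beyond its label. The comparison at a matched cytokine label, dose and time is 65–79*SE against 65–79*PE. All 9 macrophage markers were detected (sum 4567 to 9282 CPM in the IFNγ table and 3955 to 12437 CPM in the Il-4 table), and 8 markers of T cells, B cells, fibroblasts, epithelium, endothelium, liver and pancreatic islets summed to no more than 0.528 CPM in any library.

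The members were abundant. Together they took 2.60 to 3.18% of the protein-coding counts in replicates 1–3 and 2.16 to 2.64% in replicates 4–6 of the IFNγ table, and 3.15 to 3.89% and 1.61 to 2.28% in the Il-4 table. Levels between genes were compared per length, as RPKM (CPM per kilobase of exon). In PBS of the IFNγ table, replicates 1–3, the aspartic protease Ctsd stood first at 1201 ± 108 RPKM (SD, n = 3), followed by the saposin precursor Psap at 1028 ± 96.7, the cysteine protease Ctss at 846 ± 131, Ctsb at 814 ± 35.9, Ctsz at 726 ± 47.4 and the membrane glycoprotein Lamp1 at 459 ± 35.2 RPKM. Ctss and Ctsb differed by less than the SD of Ctss, whereas the steps from Ctsd to Psap and from Psap to Ctss exceeded the SD of each gene involved. The lowest were Tfeb at 4.23 ± 0.0834, Ctso at 3.30 ± 0.625 and Ctsh at 1.60 ± 0.169 RPKM. In PBS of the Il-4 table, replicates 1–3, Psap (1425 ± 196), Ctsd (1351 ± 45.8) and Ctss (1340.2 ± 67.4 RPKM) led without differing beyond the SD of Psap, and Ctsh was again the lowest at 0.103 ± 0.0549 RPKM. These are bulk libraries of a culture, in which fewer cells of a kind and less RNA per cell cannot be told apart.

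Exons of 10 members overlap those of another gene, so their counts are uncertain to the extent that the counting shared reads; the strand setting of the counting was not given in the sources used here. Ctsd (with Gm49369), Glb1 (with Tmppe) and Ctsl (with the pseudogene Gm49230) overlap a gene on the same strand. Ctsa overlaps Neurl2 and Pltp, Ctsb overlaps Fdft1, Ctsz Nelfcd, Hexa Tmem202, Lamp1 Grtp1, Atp6v1h Rgs20, Ctsl also Gm47123, and Npc1 the genes Gm15956 and Rmc1.

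The promoters of several members hold the CLEAR core. Promoter windows of 300 bases, from 250 before to 50 after the annotated start on the gene's strand (RefSeq, GRCm38.p6), were at hand for 29 of the 35 members, in 34 entries. The core TCACGTGA, which is its own reverse complement, was in a window of 6 of the 29 members (20.7%; Mcoln1, Gla, Atp6v1a, Atp6v0d1, Ctsa and Ctsd) and of 1.12% of the 27025 genes in the table. The shorter E-box CACGTG, which lies inside every CLEAR core, was in 12 of the 29 members (41.4%) and in 8.09% of all genes. A match is a stretch of letters and not a measured binding site. The 4 windows shown are those of the channel Mcoln1, of Gla with its pair of cores, and of a subunit from each sector of the pump. Capitals mark the CLEAR core and the E-box.

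Mcoln1 (chr8:3500269-3500568, plus strand): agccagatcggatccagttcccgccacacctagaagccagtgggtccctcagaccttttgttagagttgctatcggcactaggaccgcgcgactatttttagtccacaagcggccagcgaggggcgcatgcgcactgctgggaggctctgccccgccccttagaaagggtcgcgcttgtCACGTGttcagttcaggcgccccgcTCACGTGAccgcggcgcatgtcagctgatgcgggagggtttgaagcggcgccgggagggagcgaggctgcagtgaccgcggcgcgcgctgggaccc
Gla (chrX:134600956-134601255, minus strand): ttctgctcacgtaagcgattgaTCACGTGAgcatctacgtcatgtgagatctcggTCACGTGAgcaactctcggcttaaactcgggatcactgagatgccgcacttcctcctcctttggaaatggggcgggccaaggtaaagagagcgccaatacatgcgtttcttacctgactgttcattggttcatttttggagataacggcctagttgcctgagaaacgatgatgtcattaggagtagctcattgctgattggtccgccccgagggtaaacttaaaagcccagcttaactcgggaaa
Atp6v1a (chr16:44139210-44139509, minus strand): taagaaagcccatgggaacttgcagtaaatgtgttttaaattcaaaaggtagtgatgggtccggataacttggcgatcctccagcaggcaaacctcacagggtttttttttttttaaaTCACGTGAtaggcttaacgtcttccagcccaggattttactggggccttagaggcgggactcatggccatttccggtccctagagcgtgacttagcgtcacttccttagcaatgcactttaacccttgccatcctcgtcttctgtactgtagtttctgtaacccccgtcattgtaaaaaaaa
Atp6v0d1 (chr8:105566015-105566314, minus strand): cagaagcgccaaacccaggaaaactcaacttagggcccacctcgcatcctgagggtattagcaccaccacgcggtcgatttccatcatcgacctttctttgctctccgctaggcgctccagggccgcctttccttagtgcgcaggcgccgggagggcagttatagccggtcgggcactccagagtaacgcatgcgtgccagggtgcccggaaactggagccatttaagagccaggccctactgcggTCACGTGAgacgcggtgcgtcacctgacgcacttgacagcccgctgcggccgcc

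**Figure D1:**
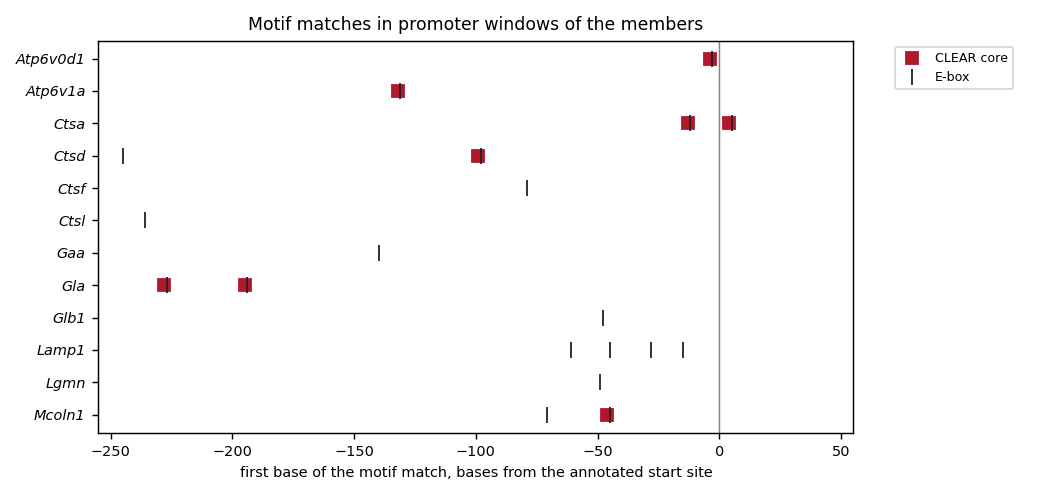
Position of each motif match in the promoter windows of the 12 members that hold one, as the distance in bases of its first base from the annotated start site (grey line). Red squares are CLEAR cores and black ticks are E-boxes; the CLEAR cores of Gla lie at -228 and -195 and that of Atp6v0d1 at -4.

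The first comparison was 65–79*PE with IFNγ against PBS, which holds the IFNγ response in both sets of replicates. Ctsc and Ctsh rose most, to 2.88-fold and 2.89-fold of PBS in replicates 1–3 and to 3.87-fold and 7.66-fold in replicates 4–6, while Ctsf, Gusb and the pump subunit Atp6v1a fell most in both sets. A member was taken as changed at a Benjamini-Hochberg adjusted p under 0.05 over all genes of the table (edgeR quasi-likelihood test). In replicates 1–3, 7 of the 35 members were higher, against 17% of all 16845 genes tested, and 14 were lower, against 23.8%. With replicates 4–6, 7 were higher, against 13.2% of genes, and 10 were lower, against 12.5%. Changes over 1.5-fold were fewer, with 5 members in either set against 18.5% and 11.2% of genes. The median log2 fold change of the 35 members was -0.13 and -0.12, against -0.04 and -0.00093 over all genes.

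**Figure D2:**
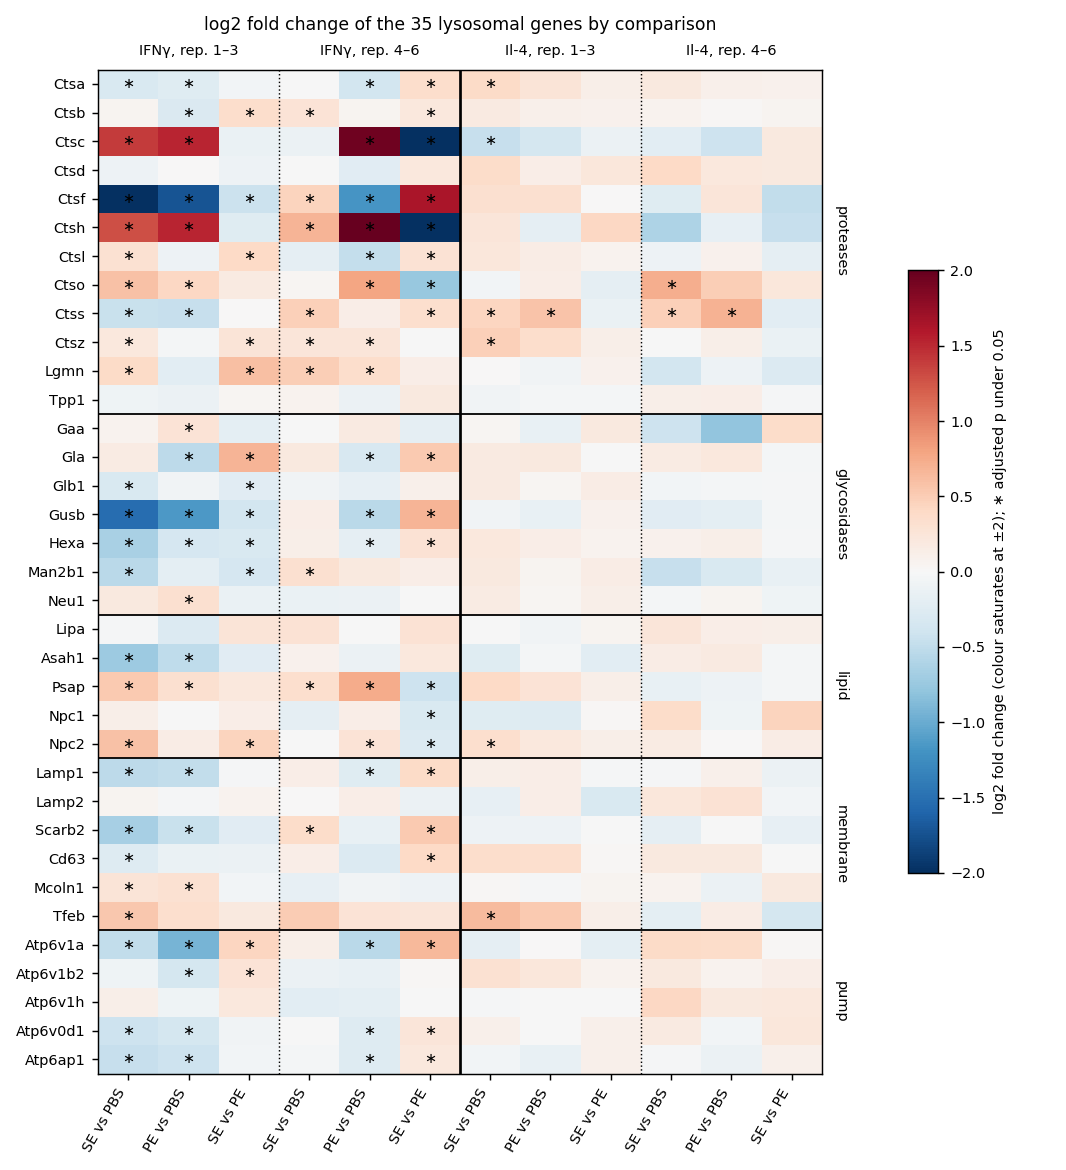
The log2 fold change of each of the 35 members (rows, grouped by role) in the 12 comparisons (columns), with red for higher and blue for lower in the group named first and the colour scale saturating at 2 in either direction. Asterisks mark an adjusted p under 0.05; the IFNγ columns hold 104 of them and the Il-4 columns 10.

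Among the proteases, Ctsc encodes cathepsin C, which activates granule serine proteases (chr7:88278085-88310888, plus strand). Its level in replicates 1–3 was 51.6, 44.5 and 47.98 CPM in PBS, 119.7, 119 and 141 CPM with 65–79*SE and 140.4, 152 and 123 CPM with 65–79*PE. Ctsc in replicates 4–6 was at 73.5, 70.3 and 97.2 CPM in PBS, 70.8, 71.5 and 80.2 CPM in the libraries labelled 65–79*SE and 387, 256 and 290.1 CPM with 65–79*PE. All 65–79*PE libraries lay above all PBS libraries of their set (log2 fold change 1.53 ± 0.14, adjusted p = 3.64e-08 in replicates 1–3, and log2 fold change 1.95 ± 0.14, adjusted p = 1.25e-09 in replicates 4–6). Ctsh, which encodes the aminopeptidase cathepsin H (chr9:90054152-90076089, plus strand), was at 7.12, 7.97 and 6.45 CPM in PBS, 18.04, 17.1 and 17.5 CPM with 65–79*SE and 21.6, 20.6 and 20 CPM with 65–79*PE in replicates 1–3. Ctsh in replicates 4–6 was at 1.61, 1.66 and 1.18 CPM in PBS, 2.81, 1.93 and 2.30 CPM in the libraries labelled 65–79*SE and 13.6, 9.68 and 10.8 CPM with 65–79*PE. The groups did not overlap, and the log2 fold change with 65–79*PE was 1.53 ± 0.13 and 2.94 ± 0.15, adjusted p = 1.11e-08 and 8.02e-12. Ctso, a less studied cysteine protease, rose with 65–79*PE in both sets, with a log2 fold change of 0.41 ± 0.10 and 0.80 ± 0.10. Its libraries were at 20.6, 14.8 and 15.4 CPM in PBS and 21.3, 25.6 and 20.5 CPM with 65–79*PE in replicates 1–3, where the lowest 65–79*PE library (20.5 CPM) lay just under the highest PBS library, and at 28.4, 29.97 and 30.7 CPM in PBS, 29.6, 31.9 and 30.4 CPM in the libraries labelled 65–79*SE and 52.8, 52.3 and 49.6 CPM with 65–79*PE in replicates 4–6, with no overlap between PBS and 65–79*PE.

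Ctsf, which encodes cathepsin F, a cysteine protease that cleaves the invariant chain in macrophages (chr19:4855130-4860918, plus strand), moved the other way. It stood at 50.5, 44.9 and 49.7 CPM in PBS, 10.8, 9.59 and 12.4 CPM with 65–79*SE and 13.1, 15.04 and 15.9 CPM with 65–79*PE in replicates 1–3. Ctsf in replicates 4–6 was at 28.8, 27.1 and 18.3 CPM in PBS, 34.7, 32.3 and 34.5 CPM in the libraries labelled 65–79*SE and 10.6, 11.7 and 10.6 CPM with 65–79*PE. The 65–79*PE libraries were below every PBS library of their set (log2 fold change -1.72 ± 0.13, adjusted p = 3.29e-09, and log2 fold change -1.18 ± 0.13, adjusted p = 1.38e-06). Ctss, the cathepsin best known for degrading the invariant chain, was at 1351, 1080.5 and 1015 CPM in PBS, 849.6, 787 and 902 CPM with 65–79*SE and 752, 864 and 897 CPM with 65–79*PE in replicates 1–3 and fell with 65–79*PE there (log2 fold change -0.46 ± 0.12, adjusted p = 0.00458). Ctss in replicates 4–6 was at 1224, 1175 and 842 CPM in PBS, 1627, 1446 and 1431 CPM in the libraries labelled 65–79*SE and 1201, 1219 and 1149 CPM with 65–79*PE, where the groups overlapped and the change was 0.14 ± 0.12 with an adjusted p of 0.449; the difference between the sets was past the test (-0.59). Ctsl, a cysteine protease of broad range, was at 758, 691 and 687 CPM in PBS, 936, 816 and 875 CPM with 65–79*SE and 644, 662 and 692 CPM with 65–79*PE in replicates 1–3. Ctsl in replicates 4–6 was at 629, 649.9 and 742 CPM in PBS, 588, 597 and 595 CPM in the libraries labelled 65–79*SE and 490.4, 487 and 473 CPM with 65–79*PE. It fell in replicates 4–6 (-0.48), was at -0.10 with an adjusted p of 0.288 in replicates 1–3, and differed between the sets (0.38). Ctsd stayed under the threshold in both sets, at 3012, 2925 and 2533 CPM in PBS, 2637, 2735 and 2561 CPM with 65–79*SE and 2505, 2834 and 3208 CPM with 65–79*PE in replicates 1–3. Its libraries in replicates 4–6 were at 2723, 2523 and 2890.3 CPM in PBS, 2486, 3035 and 2539 CPM in the libraries labelled 65–79*SE and 1840.3, 2770.0 and 2355 CPM with 65–79*PE, and groups overlapped in both sets.

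Of the other proteases, Ctsa, the protective protein of beta-galactosidase and neuraminidase, fell in both sets (-0.24 and -0.37). Ctsb, a cysteine protease, fell in replicates 1–3 (-0.29) and had a change of 0.06, not past the test, in replicates 4–6. Ctsz, a carboxypeptidase, and Lgmn, the asparaginyl endopeptidase legumain, rose in replicates 4–6 (0.24 and 0.36) and were at -0.05 and -0.21, not past the test, in replicates 1–3. For Lgmn the difference between sets was itself past the test (-0.57), as it was for Ctsz (-0.29) and Ctsb (-0.35). Tpp1, the tripeptidyl peptidase, did not pass in either set (-0.12 and -0.12).

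**Figure D3:**
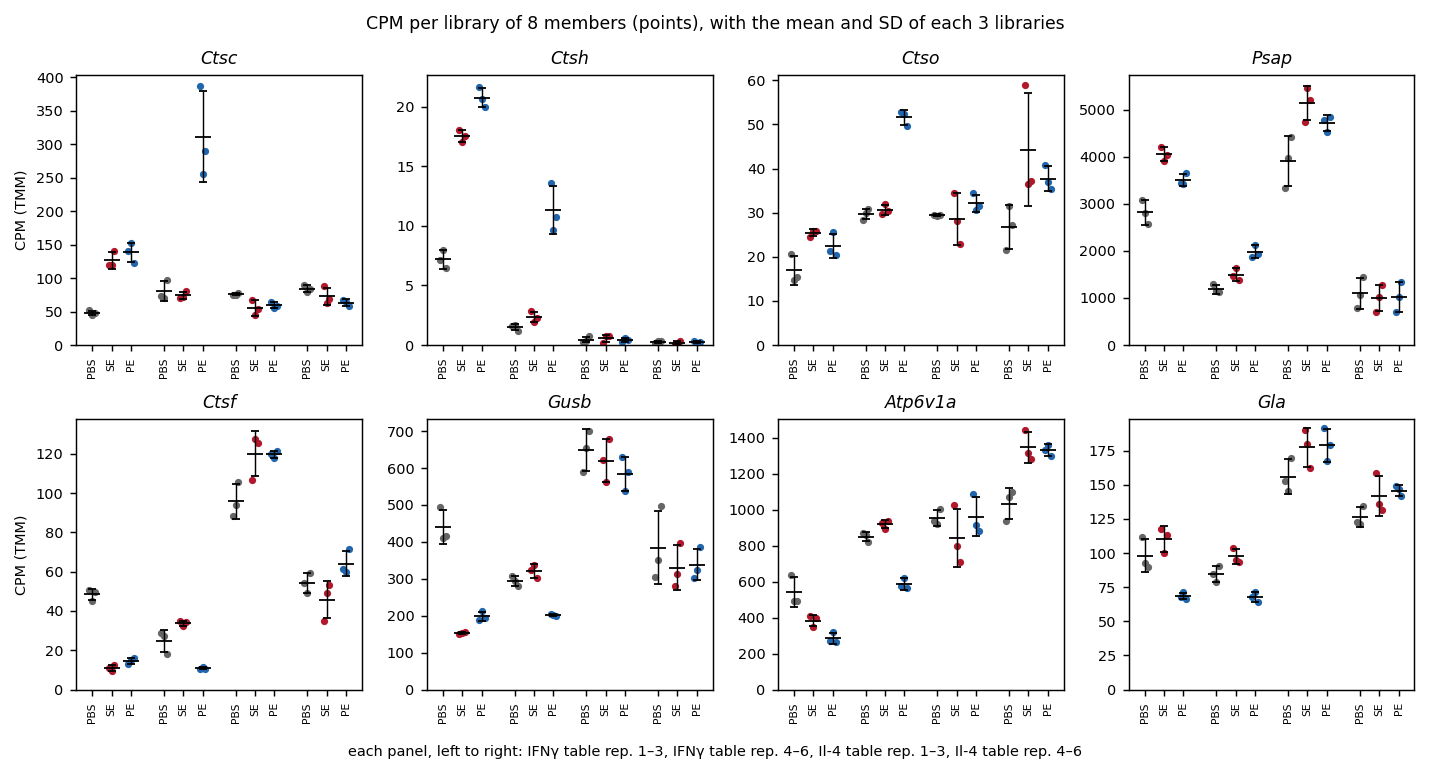
CPM of 8 members in each library (points), with the mean and the SD of the 3 libraries of a group and set (bars), on a linear axis from 0. Within each panel the IFNγ table comes first and the Il-4 table second; Ctsc and Ctsh stand high in the 65–79*PE libraries of the IFNγ table in both sets and in the libraries labelled 65–79*SE of replicates 1–3 only, and Ctsf and Gusb stand low in the same libraries.

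Of the 7 glycosidases, 3 fell in each set, where 23.8% and 12.5% of all genes were lower. In replicates 1–3, 2 rose, where 17% of all genes were higher. edgeR called none higher in replicates 4–6, against 13.2% of all genes, and 1 was higher there at an unadjusted p under 0.05. Gusb encodes beta-glucuronidase (chr5:129989011-130003049, minus strand). It was at 494, 409.5 and 417 CPM in PBS, 150.4, 153 and 156 CPM with 65–79*SE and 189, 213 and 193 CPM with 65–79*PE in replicates 1–3. Gusb in replicates 4–6 was at 309, 293 and 279.9 CPM in PBS, 323, 338 and 302 CPM in the libraries labelled 65–79*SE and 203, 203 and 198 CPM with 65–79*PE. The 65–79*PE libraries lay below all PBS libraries in both sets (log2 fold change -1.15 ± 0.07, adjusted p = 2.58e-10, and log2 fold change -0.54 ± 0.07, adjusted p = 1.12e-05), and the fall was larger in replicates 1–3 (difference -0.60 ± 0.10, adjusted p = 0.00117). Gla, the alpha-galactosidase A that is deficient in Fabry disease (chrX:134588149-134601125, minus strand), was at 112, 92.8 and 89.6 CPM in PBS, 118, 99.7 and 113 CPM with 65–79*SE and 68.1, 71.1 and 66.4 CPM with 65–79*PE in replicates 1–3. Gla in replicates 4–6 was at 84.9, 78.5 and 90.7 CPM in PBS, 104, 94.9 and 93.5 CPM in the libraries labelled 65–79*SE and 67.8, 71.6 and 63.9 CPM with 65–79*PE. It fell with 65–79*PE in both sets, with no overlap (-0.52 and -0.32). Hexa, the alpha subunit of beta-hexosaminidase, fell in both sets as well (-0.34 and -0.17). Gaa, the acid alpha-glucosidase, and Neu1, the lysosomal sialidase, rose in replicates 1–3 (0.28 and 0.32) and were at 0.18 and -0.12, not past the test, in replicates 4–6, and for Neu1 the sets differed by 0.44. Glb1, the beta-galactosidase, and Man2b1, the alpha-mannosidase, passed in neither set.

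In the lipid group Psap, whose product is cut into the saposins that help lipid hydrolases reach their substrates (chr10:60277627-60302597, plus strand), rose in both sets. It was at 3091, 2811 and 2560.2 CPM in PBS, 4212, 3917 and 4046 CPM with 65–79*SE and 3439, 3412 and 3657 CPM with 65–79*PE in replicates 1–3. Psap in replicates 4–6 was at 1297, 1141 and 1121 CPM in PBS, 1463, 1646 and 1372 CPM in the libraries labelled 65–79*SE and 1871, 2130.0 and 1944 CPM with 65–79*PE. The change with 65–79*PE was 0.31 ± 0.08 and 0.74 ± 0.08 (adjusted p = 0.00557 and 1.49e-06), and it was larger in replicates 4–6 (difference -0.43 ± 0.12, adjusted p = 0.0257). Asah1, the acid ceramidase, fell in replicates 1–3 (-0.51), and Npc2, a soluble cholesterol carrier, rose in replicates 4–6 (0.27). Lipa, the acid lipase, and Npc1, the membrane partner of Npc2, passed in neither set.

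Among the membrane genes Lamp1, the most abundant of them, fell with 65–79*PE in both sets. It was at 1334, 1201 and 1152 CPM in PBS, 870.3, 847 and 846 CPM with 65–79*SE and 830.3, 890.4 and 892 CPM with 65–79*PE in replicates 1–3. Lamp1 in replicates 4–6 was at 993, 982 and 984 CPM in PBS, 1117, 1112 and 1019 CPM in the libraries labelled 65–79*SE and 798, 896 and 811 CPM with 65–79*PE. The log2 fold change was -0.50 ± 0.07 and -0.24 ± 0.07, with an adjusted p of 6.83e-06 and 0.011; without 65–79*PE replicate 4 the second was -0.21 with an adjusted p of 0.0547. Scarb2, the receptor that sorts glucocerebrosidase, fell in replicates 1–3 (-0.44). The channel gene Mcoln1, whose promoter holds a CLEAR core, was at 78.1, 77.6 and 76.02 CPM in PBS, 92.5, 93.5 and 90.3 CPM with 65–79*SE and 90.1, 98.7 and 98.4 CPM with 65–79*PE in replicates 1–3, where it rose with 65–79*PE (log2 fold change 0.31 ± 0.07, adjusted p = 0.00229). Mcoln1 in replicates 4–6 was at 68.9, 67.2 and 78.9 CPM in PBS, 62.4, 71.1 and 59.3 CPM in the libraries labelled 65–79*SE and 64.2, 71.4 and 69.96 CPM with 65–79*PE, with overlapping groups, a change of -0.07 and a difference between the sets of 0.38. The regulator Tfeb was at 23.5, 24.5 and 24.02 CPM in PBS, 36.4, 34.9 and 33.2 CPM with 65–79*SE and 31.8, 28.4 and 30.7 CPM with 65–79*PE in replicates 1–3. Tfeb in replicates 4–6 was at 13.98, 11.4 and 7.14 CPM in PBS, 14.9, 19.2 and 12.9 CPM in the libraries labelled 65–79*SE and 13.1, 12.4 and 13.9 CPM with 65–79*PE. It did not pass with 65–79*PE in either set (0.34 ± 0.15 and 0.27 ± 0.17, adjusted p = 0.0914 and 0.265), although all 3 libraries of replicates 1–3 lay above PBS. Lamp2 and the tetraspanin Cd63 passed in neither set.

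Of the 5 pump members, 4 fell with 65–79*PE in replicates 1–3 and 3 in replicates 4–6, where 23.8% and 12.5% of all genes were lower. edgeR called none higher in either set, and 0 were higher at an unadjusted p under 0.05. Atp6v1a, the catalytic A subunit of the V1 sector that binds ATP (chr16:44085402-44139705, minus strand), was at 636, 489.6 and 494 CPM in PBS, 407, 348 and 396 CPM with 65–79*SE and 271, 319 and 263 CPM with 65–79*PE in replicates 1–3. Atp6v1a in replicates 4–6 was at 868, 857 and 820.4 CPM in PBS, 927, 895 and 936 CPM in the libraries labelled 65–79*SE and 577, 621 and 563 CPM with 65–79*PE. The 65–79*PE libraries lay below every PBS library in both sets (log2 fold change -0.92 ± 0.09, adjusted p = 2.02e-07, and log2 fold change -0.53 ± 0.09, adjusted p = 0.000239), which is 1.90-fold and 1.45-fold lower. Atp6v0d1, a subunit that joins the membrane sector to the stalk, fell in both sets (-0.35 and -0.26), as did the accessory subunit Atp6ap1 (-0.41 and -0.25). Atp6v1b2, the B subunit, fell in replicates 1–3 (-0.35) and was at -0.14 in replicates 4–6, and the regulatory subunit Atp6v1h passed in neither. Among 15 other pump subunit genes tested, 7 were lower and 2 higher in replicates 1–3, where 23.8% and 17% of all genes were. In replicates 4–6, 9 were lower and 0 higher (10 passed at an unadjusted p under 0.05), where 12.5% and 13.2% of all genes were. The largest changes of the 15 genes were in Atp6v0d2 (-1.57), Atp6v0e (-0.62) and Atp6v0c (-0.53) in replicates 1–3 and in Atp6v0d2 (-1.39), Atp6v0e (-0.47) and Atp6v1e1 (-0.46) in replicates 4–6. Atp6v0d2 encodes the variant of the d subunit found in osteoclasts and macrophages. Median log2 fold changes of the 15 genes were -0.08 and -0.26.

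Of the 6 members with a CLEAR core in the windows described above, 4 were lower with 65–79*PE in each set (Gla, Atp6v1a, Atp6v0d1 and Ctsa), where 23.8% and 12.5% of all genes were lower, and 1 (Mcoln1) was higher in replicates 1–3. Their median log2 fold change was -0.29 in both sets. Of the 23 members whose windows lack the core, 7 were lower and 5 higher in replicates 1–3, and 6 were lower and 6 higher in replicates 4–6, with medians of -0.12 and -0.0077. With the label 65–79*SE and IFNγ the medians with and without the core were -0.20 and -0.02 in replicates 1–3. There 3 and 10 members were lower (23.2% of all genes) and 1 and 8 higher (19.7%). In replicates 4–6 the medians were -0.01 and 0.13. edgeR called 0 members lower in either class there (2.62% of all genes) and 0 and 7 higher (1.91%). With 65–79*PE and Il-4 the medians were 0.07 and 0.13 in replicates 1–3 and 0.15 and 0.08 in replicates 4–6, and with 65–79*SE and Il-4 0.14 and 0.16, and 0.18 and -0.03. Tfeb itself, as given above, passed in neither set with 65–79*PE and IFNγ. With 65–79*SE it was higher than PBS in replicates 1–3 with either cytokine.

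The second comparison was 65–79*SE with IFNγ against PBS, and the 2 sets of replicates gave different answers. In replicates 1–3, which carried the IFNγ response, Ctsc rose to 2.63-fold and Ctsh to 2.44-fold of PBS, and Ctsf and Gusb were 4.41-fold and 2.87-fold lower. There 10 of the 35 members were higher, against 19.7% of all genes tested, and 14 were lower, against 23.2%; 9 passed with a change over 1.5-fold, against 21.2% of genes. In replicates 4–6, whose libraries labelled 65–79*SE lacked that response, 9 members were higher, against 1.91% of genes, and none was lower, against 2.62% (3 were lower at an unadjusted p under 0.05, and DESeq2 also called none lower). Only Ctsh passed with over 1.5-fold there, against 2.04% of genes.

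In replicates 1–3 the proteases with a rise were Ctsc (1.40), Ctsh (1.29), Ctso (0.59), Lgmn (0.39), Ctsl (0.30) and Ctsz (0.22), and those with a fall were Ctsf (-2.14), Ctss (-0.44) and Ctsa (-0.30). The libraries of Ctso were at 20.6, 14.8 and 15.4 CPM in PBS and 24.5, 25.9 and 25.9 CPM with 65–79*SE, and those of Lgmn were at 656, 605 and 632 CPM in PBS and 856, 773 and 851 CPM with 65–79*SE, with no overlap. The changes of Ctsc, Ctsh and Ctsf had adjusted p values of 7.76e-08, 8.13e-08 and 1.1e-10. Glycosidases that fell were Gusb (-1.52), Hexa (-0.64), Man2b1 (-0.53) and Glb1 (-0.30), and edgeR called none higher, with 0 also at an unadjusted p under 0.05. The Gusb libraries labelled 65–79*SE were at 150.4, 153 and 156 CPM against 494, 409.5 and 417 CPM in PBS (log2 fold change -1.52 ± 0.07, adjusted p = 2.35e-12).

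In the lipid group Npc2 and Psap rose (0.59 and 0.52) and Asah1 fell (-0.73). Npc2 was at 403, 407 and 391 CPM in PBS and 618, 577 and 616 CPM with 65–79*SE, with no overlap. Asah1 was at 134, 105 and 101 CPM in PBS and 69.5, 62.5 and 72.6 CPM with 65–79*SE, also with no overlap. Of the membrane genes Tfeb and Mcoln1 rose (0.54 and 0.25, adjusted p = 0.00774 and 0.00899), and Scarb2, Lamp1 and Cd63 fell (-0.66, -0.52 and -0.25). In the values given above, all 3 libraries labelled 65–79*SE lay above PBS for Tfeb and Mcoln1 and below PBS for Lamp1. Of the pump members Atp6v1a, Atp6ap1 and Atp6v0d1 fell (-0.49, -0.46 and -0.41), and 0 were higher, also at an unadjusted p under 0.05. Among the 15 other pump subunit genes 7 were lower (23.2% of all genes), led by Atp6v0d2 (-0.86), Atp6v0e (-0.54) and Atp6v0c (-0.43), and 1 was higher (19.7% of all genes).

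In replicates 4–6 the 9 members that were higher with the label 65–79*SE were Ctsh (0.68), Lgmn (0.49), Ctss (0.47), Ctsf (0.45), Scarb2 (0.37), Psap (0.33), Man2b1 (0.32), Ctsb (0.27) and Ctsz (0.24). Ctsf, Ctss, Scarb2 and Man2b1 had fallen in replicates 1–3. The Ctss libraries were at 1224, 1175 and 842 CPM in PBS and 1627, 1446 and 1431 CPM in the libraries labelled 65–79*SE, and those of Lgmn at 606, 589.8 and 403 CPM in PBS and 779, 739 and 731 CPM in the libraries labelled 65–79*SE, without overlap in either gene. Ctsh was low here, at 1.61, 1.66 and 1.18 CPM in PBS and 2.81, 1.93 and 2.30 CPM in the libraries labelled 65–79*SE, with no overlap. These calls rested on few libraries: the count of 9 was 1 without PBS replicate 6, 5 without PBS replicate 5, and 1, 3 and 4 without the libraries labelled 65–79*SE replicates 4, 5 and 6, and it was 1 when replicates 4–6 were fitted alone. Of the 15 other pump subunit genes edgeR called 0 (2.62% of all genes were lower and 1.91% higher), and 3 passed at an unadjusted p under 0.05. The difference of the change between the sets was past the test for 21 of the 35 members, against 35.7% of all genes; it was largest for Ctsf (-2.59 ± 0.18), Gusb (-1.65 ± 0.10) and Ctsc (1.51 ± 0.19). For 65–79*PE that difference was past the test for 11 members, against 11.5% of genes, with the largest for Ctsh (-1.41 ± 0.20); it was 5 to 7 members without PBS replicates 1 or 6 or without 65–79*PE replicates 1, 3, 5 or 6.

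**Figure D4:**
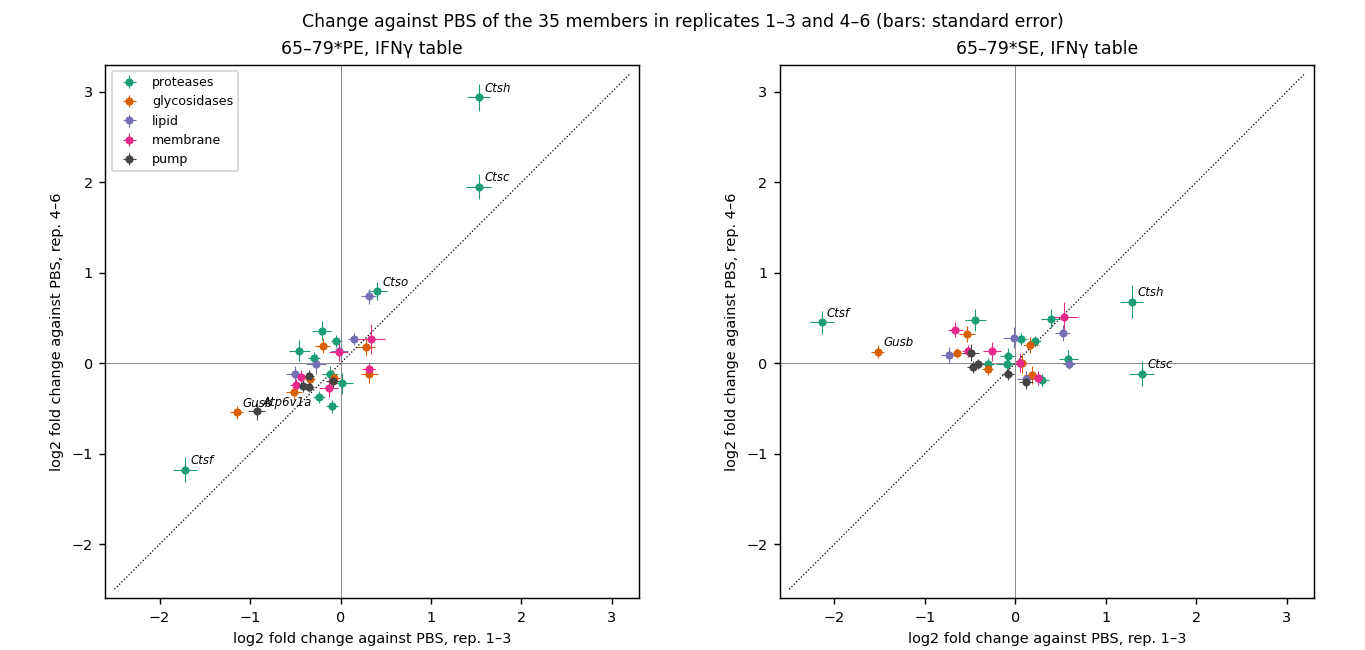
The log2 fold change against PBS with IFNγ of each member in replicates 1–3 (horizontal) and in replicates 4–6 (vertical), with standard errors as bars and colours for the roles; the dotted line marks equal change. With 65–79*PE (left) Ctsc, Ctsh, Ctsf, Gusb and Atp6v1a lie in the same direction in both sets, and with the label 65–79*SE (right) Ctsc, Ctsf and Gusb lie close to or across 0 in replicates 4–6.

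The third comparison set 65–79*SE against 65–79*PE with IFNγ at the same dose and time. In replicates 1–3 both carried the IFNγ response, but not to the same level. The IFNγ list summed to 5668 to 6112 CPM with 65–79*SE and to 7602 to 7764 CPM with 65–79*PE. There Gla, Lgmn, Npc2 and Atp6v1a were higher with 65–79*SE, by 1.35- to 1.61-fold, and Ctsf, Gusb, Man2b1, Hexa and Glb1 were lower. In all, 8 of the 35 members were higher, against 10.6% of all genes tested, and 5 were lower, against 7.43%; 2 (Gla and Lgmn) passed with over 1.5-fold, against 5.33% of genes. The median log2 fold change of the members was -0.03, against 0.0021 over all genes. Glycosidases gave 4 of the 5 lower calls.

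Gla had the largest of these differences (log2 fold change 0.69 ± 0.09, adjusted p = 1.62e-05), and its libraries with 65–79*SE, at 118, 99.7 and 113 CPM, all lay above those with 65–79*PE, at 68.1, 71.1 and 66.4 CPM. Lgmn libraries were at 856, 773 and 851 CPM with 65–79*SE and 551, 560.1 and 529 CPM with 65–79*PE (log2 fold change 0.60 ± 0.11, adjusted p = 0.000515). Npc2 libraries were at 618, 577 and 616 and 429, 443 and 457 CPM (log2 fold change 0.45 ± 0.06, adjusted p = 5.27e-05). None of these groups overlapped. The other members higher with 65–79*SE were Atp6v1a (0.43), Ctsl (0.40), Ctsb (0.35), Atp6v1b2 (0.27) and Ctsz (0.26). Those lower were Ctsf (-0.42), Gusb (-0.37), Man2b1 (-0.34), Hexa (-0.30) and Glb1 (-0.23). Man2b1 was at 77.9, 75.1 and 75.9 CPM with 65–79*SE and 98.1, 90.6 and 100.2 CPM with 65–79*PE, with no overlap. Of the differences with library values given for this comparison, that of Ctsf lost its call when 1 library was left out: its adjusted p of 0.0345 was 0.108 without 65–79*SE replicate 1, 0.14 without its replicate 2, and 0.0842 and 0.148 without 65–79*PE replicates 2 and 3. Ctsc and Ctsh, the members with the largest rise over PBS, differed between the peptides by -0.13 ± 0.13 and -0.24 ± 0.12 (adjusted p = 0.555 and 0.179), with 95% intervals from -0.41 to 0.15 and from -0.49 to 0.01. Ctss and Lamp1 differed by 0.01 (interval -0.24 to 0.26) and -0.03 (interval -0.17 to 0.11).

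The same labels in replicates 4–6 compare libraries without and with the IFNγ response. There 14 members were higher with the label 65–79*SE, against 15.1% of genes, and 6 were lower, against 16.8%; 6 passed with over 1.5-fold, against 13.9%. The lower members were Ctsh (-2.26), Ctsc (-2.07), Ctso (-0.75), Psap (-0.41), Npc1 (-0.31) and Npc2 (-0.27), and the highest were Ctsf (1.63), Gusb (0.67), Atp6v1a (0.65), Scarb2 (0.53) and Gla (0.52). The other 9 lay between 0.20 (Ctsb) and 0.40 (Cd63), among them Lamp1 (0.38), Ctsa (0.36), Ctss (0.34), Ctsl (0.29), Hexa (0.29), Atp6v0d1 (0.25) and Atp6ap1 (0.21). The Ctss call was lost without any 1 of 5 libraries, with an adjusted p of 0.0531 to 0.145. The difference between the sets was past the test for 21 of the 35 members, against 28.8% of genes. Ctsb, Ctsl, Gla and Atp6v1a were higher with 65–79*SE than with 65–79*PE in both sets, but the IFNγ list sums given above differ between the sets, so that these are not repeats of 1 contrast.

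With Il-4 few members passed in the fit without a term for the replicate number. The 1 that did so with both peptides and in both sets of replicates was Ctss. Its libraries in replicates 1–3 were at 1725, 1828 and 1907 CPM in PBS, 2618, 2574 and 2190.5 CPM with 65–79*SE and 2872, 2516 and 2693 CPM with 65–79*PE. Those in replicates 4–6 were at 981, 1075 and 1324 CPM in PBS, 1597, 1510.2 and 1608 CPM with 65–79*SE and 1770.1, 1785 and 1894 CPM with 65–79*PE. Every peptide library lay above every PBS library of its set. With 65–79*PE the log2 fold change was 0.57 ± 0.12 in replicates 1–3 and 0.69 ± 0.12 in replicates 4–6 (adjusted p = 0.0101 and 0.00232), and no single library decided either call. With 65–79*SE it was 0.44 ± 0.12 and 0.48 ± 0.12 (adjusted p = 0.023 and 0.036), and these calls were lost when PBS replicate 1, 2 or 3 or 65–79*SE replicate 2 was left out of replicates 1–3 (adjusted p 0.0635 to 0.0863), or PBS replicate 4 or 5 or 65–79*SE replicate 4 or 5 of replicates 4–6 (0.0648 to 0.122).

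With 65–79*SE and Il-4 in replicates 1–3, 5 of the 35 members were higher, against 4.55% of the 14183 genes tested, and 1 was lower, against 9.1%; 1, Tfeb, passed with over 1.5-fold, against 6.17%. Besides Ctss the higher members were Tfeb (0.64), Ctsz (0.47), Ctsa (0.38) and Npc2 (0.33), and Ctsc was lower (-0.47). Tfeb was at 40.9, 44.2 and 44.7 CPM in PBS, 60.7, 71.3 and 70.4 CPM with 65–79*SE and 68.7, 56.7 and 60.9 CPM with 65–79*PE in replicates 1–3, with both peptides above every PBS library (log2 fold change 0.64 ± 0.16, adjusted p = 0.0134 with 65–79*SE, and 0.52 ± 0.16 with an adjusted p of 0.0539 with 65–79*PE). Tfeb in replicates 4–6 was at 17.8, 18.8 and 21.96 CPM in PBS, 11.3, 19.9 and 19.9 CPM with 65–79*SE and 21.8, 21.1 and 22.04 CPM with 65–79*PE, with overlapping groups, and the difference between the sets was past the test with 65–79*SE (0.84 ± 0.23, adjusted p = 0.045). The count of 1 member past this test of the sets was 0 without any 1 of the 6 PBS libraries or of 65–79*SE replicates 2, 3, 4 and 5, 6 without 65–79*SE replicate 1 and 4 without its replicate 6. Without PBS replicate 3 or 65–79*SE replicate 2 the rise of Tfeb had an adjusted p of 0.0521 and 0.0639. Ctsz and Ctsc lost their calls without any 1 of 5 libraries (adjusted p 0.0754 to 0.214 and 0.0556 to 0.191). The count of 6 members was 0 without PBS replicate 3 or 65–79*SE replicate 2, 1 without PBS replicate 2, 2 without 65–79*SE replicate 3 and 3 without PBS replicate 1, and it was 13 when replicates 1–3 were fitted alone. Ctsz was at 1370.0, 1573 and 1715 CPM in PBS and 1803, 2511 and 2145 CPM with 65–79*SE, and Ctsc at 75.5, 74.9 and 77.99 CPM in PBS and 67.4, 44.4 and 53.3 CPM with 65–79*SE, with no overlap in either.

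In replicates 4–6 of the same comparison 2 members were higher, against 1.58% of genes, and none was lower, against 1.66% (2 were lower at an unadjusted p under 0.05, and none by DESeq2); 1 passed with over 1.5-fold, against 2.21%. They were Ctss and Ctso (0.73). Ctso was at 21.5, 31.5 and 27.2 CPM in PBS, 59.04, 36.6 and 37.3 CPM with 65–79*SE and 40.8, 37.01 and 35.3 CPM with 65–79*PE, with all 65–79*SE libraries above PBS, but its replicate 4 at 59.04 CPM stood apart and without it the change was 0.48 with an adjusted p of 0.176. It was also lost without PBS replicate 4 (0.123) or 6 (0.0707). The count of 2 was 0 without PBS replicate 4 or 65–79*SE replicate 4, 1 without PBS replicate 5 or 65–79*SE replicate 5, and 4 without 65–79*SE replicate 6, and it was 0 when replicates 4–6 were fitted alone. With 65–79*PE and Il-4, Ctss was the 1 member that edgeR called higher in replicates 1–3 (against 2.58% of genes) and in replicates 4–6 (against 1.79%), and none was lower (against 4.07% and 3.79%; 1 and 2 were lower at an unadjusted p under 0.05, and none by DESeq2). No member passed with over 1.5-fold in replicates 1–3, against 3.48% of genes, and Ctss did in replicates 4–6, against 3.58%. The count in replicates 4–6 was 2 without PBS replicate 4 or 65–79*PE replicate 6. These counts of 1 moved with the tool: DESeq2 called 3 and 2 members higher, and edgeR on replicates 1–3 alone called 5. A term for the replicate number raised the counts with Il-4 against PBS for both peptides, as given in the last section. The counts and lost calls above are those of fits without that term.

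The other members whose library values are given throughout stayed under the threshold with Il-4. Ctsl was at 1250.0, 1299 and 1370.5 CPM in PBS, 1544, 1557 and 1476 CPM with 65–79*SE and 1510.3, 1394 and 1449.8 CPM with 65–79*PE in replicates 1–3. Ctsl in replicates 4–6 was at 881, 888 and 1055 CPM in PBS, 862, 873 and 912 CPM with 65–79*SE and 962, 1001 and 1023 CPM with 65–79*PE. Ctsd was at 3094, 3135 and 3298 CPM in PBS, 3701, 4623 and 3902 CPM with 65–79*SE and 3561, 3386 and 3503 CPM with 65–79*PE in replicates 1–3. Ctsd in replicates 4–6 was at 938, 1209 and 1608 CPM in PBS, 1947, 1489 and 1529 CPM with 65–79*SE and 1380.5, 1487 and 1482 CPM with 65–79*PE. All peptide libraries of Ctsl and Ctsd in replicates 1–3 lay above PBS, with changes with 65–79*SE of 0.22 ± 0.10 and 0.36 ± 0.16 that did not pass (adjusted p = 0.132 and 0.144). Lamp1 was at 1639, 1838 and 1940.3 CPM in PBS, 1929, 1959.8 and 1966 CPM with 65–79*SE and 2003, 1922 and 2003 CPM with 65–79*PE in replicates 1–3. Lamp1 in replicates 4–6 was at 979, 1124 and 1346 CPM in PBS, 1032, 1161 and 1202 CPM with 65–79*SE and 1113, 1271 and 1301 CPM with 65–79*PE, with changes between -0.02 and 0.13. Mcoln1 was at 121, 114 and 124 CPM in PBS, 129, 124 and 115 CPM with 65–79*SE and 122, 114 and 116 CPM with 65–79*PE in replicates 1–3. Mcoln1 in replicates 4–6 was at 49.5, 56.8 and 57.7 CPM in PBS, 61.1, 54.8 and 57 CPM with 65–79*SE and 45.7, 52.04 and 53.5 CPM with 65–79*PE, and both peptides overlapped PBS in both sets. Atp6v1a was at 935, 922 and 1002 CPM in PBS, 1024, 798 and 707 CPM with 65–79*SE and 1087, 917 and 881 CPM with 65–79*PE in replicates 1–3. Atp6v1a in replicates 4–6 was at 939, 1068 and 1096 CPM in PBS, 1445, 1318 and 1281 CPM with 65–79*SE and 1331, 1362 and 1296 CPM with 65–79*PE. There all its peptide libraries lay above PBS, and the changes of 0.38 ± 0.13 and 0.36 ± 0.13 did not pass (adjusted p = 0.104 and 0.111). Ctsh was near the limit of detection in the Il-4 table, at 0.0896 to 0.754 CPM where 3 counts correspond to 0.095 to 0.172 CPM, and no change is read from it.

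**Figure D5:**
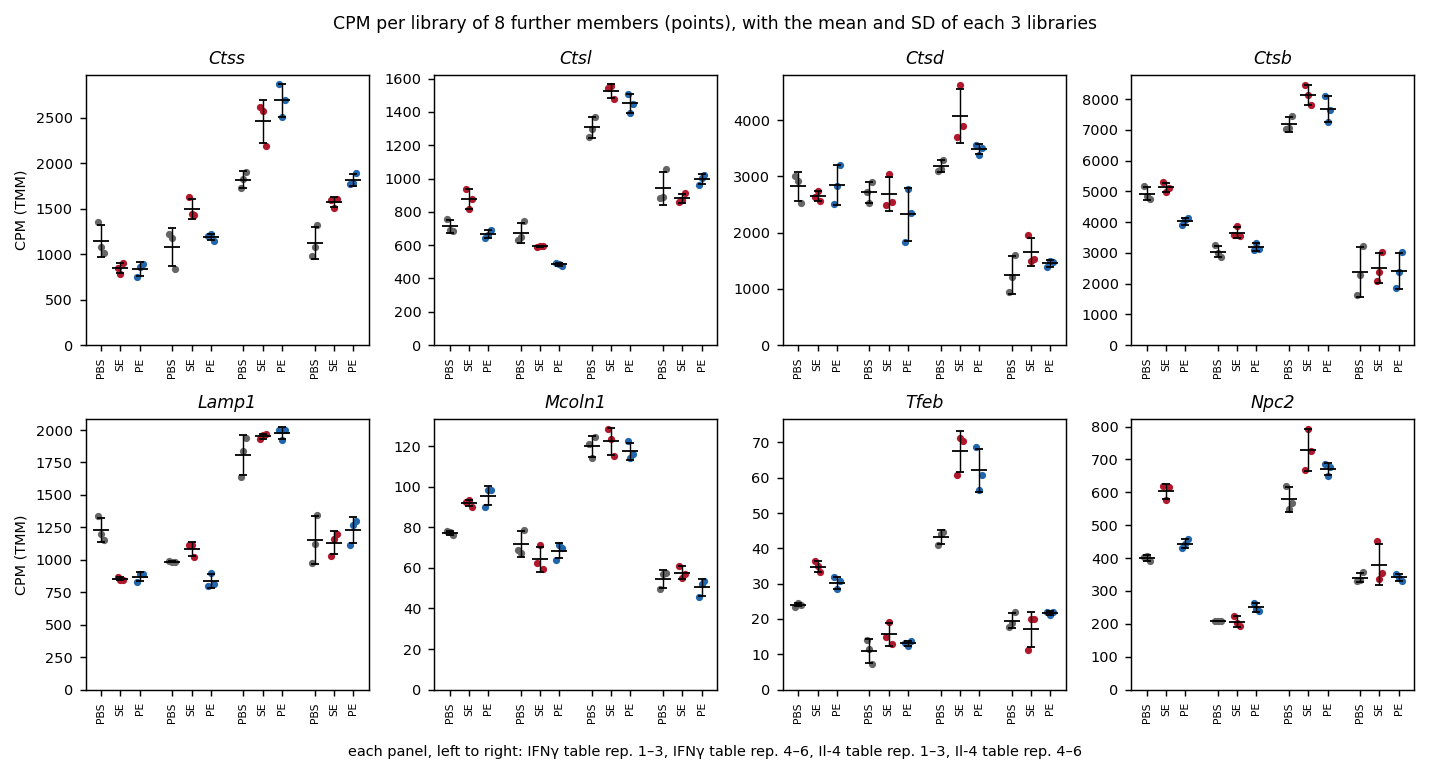
CPM of a further 8 members in each library (points), with the mean and the SD of the 3 libraries of a group and set (bars), on a linear axis from 0 and with the IFNγ table left of the Il-4 table in each panel. Ctss lies above PBS in every peptide library with Il-4, whereas the groups of Ctsd overlap in both sets of the IFNγ table.

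Between 65–79*SE and 65–79*PE with Il-4 no member and no other gene passed in either set (0% of genes higher and 0% lower, and 0% with over 1.5-fold, in each set). At an unadjusted p under 0.05 there were 1 member and 570 genes in replicates 1–3 and 5 members and 1321 genes in replicates 4–6; DESeq2 called 0 and 62 genes, none of them a member. The 95% interval of the difference lay within 1.5-fold in either direction for 30 of the 35 members in replicates 1–3 and for 28 in replicates 4–6. For Ctss it ran from -0.38 to 0.12 and from -0.46 to 0.04 on the log2 scale. The difference was largest relative to its error for Ctsf in replicates 4–6 (-0.49 ± 0.13, adjusted p = 0.269). With Il-4 the set difference was past the test for 1 member with 65–79*SE (Tfeb, against 4.39% of genes), for none with 65–79*PE (0.00705% of genes, 1488 at an unadjusted p under 0.05) and for none between the peptides (0% of genes, 444 at an unadjusted p under 0.05); for the last 2 DESeq2 called no member either, and 0 members and 1 member were under 0.05 unadjusted.

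Whether the change with 65–79*PE differed between the cytokines was tested over both tables. The difference, IFNγ minus Il-4, was past the test for 16 members in replicates 1–3, against 18.1% of 17201 genes, and for 12 in replicates 4–6, against 16%. Both counts include Ctsh, whose difference is not read, since its level with Il-4 lay near the floor. Ctsc (difference 1.86 ± 0.20 and 2.29 ± 0.20) was higher with IFNγ in both sets. Ctsf (-2.05 ± 0.19 and -1.48 ± 0.20), Atp6v1a (-0.95 and -0.96), Ctss (-1.03 and -0.62), Gla (-0.73 and -0.60), Ctsa (-0.52 and -0.54), Lamp1 (-0.64 and -0.40) and Hexa (-0.48 and -0.36) were lower with IFNγ in both sets. In replicates 1–3 also Gusb, Atp6v1b2, Asah1, Scarb2, Atp6v0d1 and Atp6ap1 were lower (-1.02 to -0.28) and Mcoln1 higher (0.32), and in replicates 4–6 Ctsl was lower (-0.63) and Psap and Gaa higher (0.78 and 0.90). The tables were counted separately, so that the changes were compared and not the levels.

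Lysosomal genes outside the 35 were counted in the same comparisons. The list of hydrolase genes also holds Gnptab, which encodes a transferase, and Gm2a, which encodes an activator protein. Of 27 other lysosomal hydrolase genes tested, 12 were lower and 8 higher with 65–79*PE in replicates 1–3, where 23.8% of all genes were lower and 17% higher, and 9 were lower and 7 higher in replicates 4–6, where 12.5% and 13.2% were. The largest changes were in Ctsk (-2.83), Arsb (-2.30) and Acp5 (-2.27) in replicates 1–3 and in Ctsk (-2.90), Acp5 (-2.41) and Arsb (-2.06) in replicates 4–6; Ctsk and Acp5 encode the protease and the acid phosphatase that mark osteoclasts, and Arsb the arylsulfatase B. With 65–79*SE in replicates 1–3, 12 were lower and 9 higher (23.2% and 19.7% of all genes), again led by Ctsk (-2.67), Arsb (-2.45) and Acp5 (-1.86). Of the hydrolase genes in replicates 4–6 of that label 2 were lower, Acp5 (-0.85) and Ctsk (-0.64), and 1 higher (2.62% and 1.91% of all genes), Dnase2a (0.29). Of 23 other membrane, sorting and regulator genes, 10 were lower and 7 higher with 65–79*PE in replicates 1–3 and 5 lower and 4 higher in replicates 4–6. The largest of these were Sort1 (-1.71), Slc11a1 (1.39) and Mitf (-1.23) in replicates 1–3 and Sort1 (-1.45), Slc11a1 (1.21) and Igf2r (-0.52) in replicates 4–6. Slc11a1 encodes the phagosomal metal transporter NRAMP1, Sort1 the sorting receptor sortilin, and Mitf a relative of TFEB. Between the peptides with IFNγ in replicates 1–3, 10.6% of all genes were higher with 65–79*SE and 7.43% lower. There 4 of the 27 hydrolase genes were higher with 65–79*SE and 4 lower, led by Manba (-0.59), Naglu (-0.45) and Sgsh (-0.43). Of the pump genes 2 were higher and 1 lower, Atp6v1g2 (-0.79), Atp6v0d2 (0.72) and Atp6v1c1 (0.47).

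With Il-4, 5 of the 27 other hydrolase genes were higher and 2 lower with 65–79*SE in replicates 1–3 (4.55% and 9.1% of all genes), led by Ctsk (0.84), Pla2g15 (0.69) and Arsb (-0.65). With 65–79*PE, 3 were higher and 2 lower in replicates 1–3 (2.58% and 4.07% of all genes), led by Arsb (-0.75), Gnptab (-0.67) and Pla2g15 (0.66). Gnptab is counted in this list but is not itself a hydrolase gene. Pla2g15, a lysosomal phospholipase, was higher with 65–79*PE in replicates 4–6 as well (0.57). Of the other pump subunit genes 3 were higher and 1 lower with 65–79*SE in replicates 1–3 (4.55% and 9.1% of all genes), led by Atp6v0d2 (1.16), Atp6v1f (0.40) and Atp6v0a2 (-0.27). Atp6v0d2 thus rose here and fell with IFNγ. Of the 23 membrane, sorting and regulator genes 2 were higher and 3 lower with 65–79*PE in replicates 4–6 (1.79% and 3.79% of all genes). They were led by Mcoln2 (1.29), Laptm5 (-0.90) and Tfe3 (-0.51), among which Tfe3 is a relative of TFEB. The difference between the sets did not pass for Atp6v0d2 with 65–79*SE (edgeR adjusted p = 0.915). Nor did it pass for Mcoln2, Laptm5 and Tfe3 with 65–79*PE (0.760, 0.626 and 0.501). Other combinations of list, peptide and set with Il-4 are not described here.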

How the data were processed

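RNA-seq gene counts were analysed from 36 RAW264.7 libraries, in a table of 18 with IFNγ and a table of 18 with Il-4. By the study's description all libraries were made with a stranded mRNA kit. Reads with 1 alignment were kept and assigned to GENCODE genes (GRCm38.p5) with featureCounts, and the raw counts were deposited. The aligner and the strand setting were not given in the sources used here. The Rn7s and histone content given above differed between the sets of replicates, and the cause of that was not tested. No value was rescaled before the test. Each table was fitted with edgeR 4.0.16 in R 4.3.3 (TMM, filterByExpr, quasi-likelihood test) with 1 mean per arm and set of replicates, and p-values were adjusted over all genes tested (Benjamini-Hochberg). Standard errors in the report are those of the log2 fold change. All 35 members passed the filter, and 2 further fits on both tables compared the cytokines. Totals of 17.05 to 63.2 M counts put the floor of 3 counts at 0.0541 to 0.172 CPM, for counting error only. RPKM used exon lengths of GENCODE M21, and promoters came from RefSeq. Of 90 pairs of libraries within a group 0 were identical, and each differed beyond sampling noise (chi-square per degree of freedom at least 5.23), so each library was counted once. Alternatives were another normalization (RLE), DESeq2 1.42.0, other filters, a replicate block, other groupings of the sets and leaving out each library. The members and lists were chosen with earlier results of these data known. Their counts beside the share of all genes are thus a description and not an independent test. Values per library were given for Tfeb, Mcoln1, Ctss, Ctsl, Ctsd, Lamp1 and Atp6v1a and for up to 3 rises and 3 falls per comparison, and other genes by up to 3 per list. The fit was tested on simulated data with 200 changed genes. Results that need certain genes are not reported here.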

Additional observations from a re-analysis of the deposited data

Results flagged for a closer look

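Of the 6 libraries of a group, 1 stood apart from the other 5 in 3 of the 210 member and group pairs tested (Dixon's ratio above 0.625), where chance gives about 1 in 20 for values of 1 distribution. That rate does not apply here as it stands, since each group holds replicates 1–3 and 4–6, which lie apart. Lgmn was at 403 CPM in PBS replicate 6 of the IFNγ table, against 589.8 to 656 CPM in the other 5 PBS libraries. Ctsh was at 0.744 CPM in PBS replicate 3 of the Il-4 table, near the floor. Atp6v1h was at 318 CPM in 65–79*SE replicate 4 of the Il-4 table, against 143 to 203 CPM in the other 5.

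The change against PBS with IFNγ differed between replicates 1–3 and 4–6 for 21 members with the label 65–79*SE, where the libraries of replicates 4–6 carry no IFNγ response, and for 11 with 65–79*PE. With the label 65–79*SE the differences (replicates 1–3 minus 4–6, log2) included Ctsc at 1.51, Ctsh at 0.61, Ctsf at -2.59 and Gusb at -1.65. With 65–79*PE they included Neu1 at 0.44, Ctsl at 0.38, Ctsh at -1.41 and Gusb at -0.60. For the label 65–79*SE against 65–79*PE 21 members differed between the sets, with Ctsh at 2.02, Ctsc at 1.94, Ctsf at -2.05 and Gusb at -1.04. With Il-4 the sets differed for 1 member, Tfeb with 65–79*SE (0.84).

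The change with 65–79*PE differed between IFNγ and Il-4 for 16 members in replicates 1–3 and for 12 in replicates 4–6. In replicates 1–3 the differences included Ctsc at 1.86, Ctsf at -2.05 and Ctss at -1.03. In replicates 4–6 they included Ctsc at 2.29, Ctsf at -1.48 and Atp6v1a at -0.96. The fitted differences of Ctsh, 1.70 and 3.04, are not read as a change, since its PBS and 65–79*PE libraries with Il-4 held 3 to 20 counts each, near the floor of 3. No cause of these differences was tested.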

How the results depend on the processing

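Counts of members past the test are given here as the reported count followed by the alternatives that moved it by over 1.5 times. Counts with the replicate block are given apart, at the end of this section. With IFNγ, 65–79*SE against PBS in replicates 1–3 had 24, and 6 when both sets were pooled with a term for the set, 0 without that term and 9 with a 1.5-fold minimum. 65–79*PE against PBS had 21 in replicates 1–3, and 6 pooled without the term and 5 with the minimum. Between the peptides in replicates 1–3 there were 13, and 7 and 1 pooled with and without the term and 2 with the minimum. In replicates 4–6 the label 65–79*SE against PBS had 9, and 1 with the set fitted alone, 0 pooled without the term and 1 with the minimum; 65–79*PE had 17, and 6 pooled without the term and 5 with the minimum; between the labels there were 20, and 7 and 1 pooled and 6 with the minimum. Pooling mixes the libraries labelled 65–79*SE with and without the IFNγ response. With Il-4, 65–79*SE against PBS in replicates 1–3 had 6, and 13 with the set alone, 0 pooled without the term and 1 with the minimum; in replicates 4–6 it had 2, and 0 alone, 5 and 0 pooled with and without the term, and 1 with the minimum. 65–79*PE had 1 in replicates 1–3, and 2 with RLE factors, no filter, at least 10 counts in every library, small RNA, histone and mitochondrial genes left out, or pooled with the term, 3 with DESeq2, 5 alone, and 0 pooled without the term or with the minimum. In replicates 4–6 it had 1, and 2 with DESeq2, pooled with the term or without replicate 6 of every arm (an alternative added after seeing the data), 3 with no filter and 0 pooled without the term. Between the peptides with Il-4 in replicates 4–6 there were 0, and 1 with no filter. The difference between sets with 65–79*SE and Il-4 had 1, and 5 with DESeq2 and 4 with no filter. The cause of these moves was not tested.

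Leaving out 1 library at a time gave 23 to 25, 19 to 21 and 11 to 13 members in the 3 IFNγ comparisons of replicates 1–3 (in the order above), 1 to 11, 14 to 20 and 17 to 21 in replicates 4–6, 0 to 7 and 0 to 4 for 65–79*SE with Il-4, 1 and 1 to 2 for 65–79*PE with Il-4, 5 to 12 for the difference between sets with 65–79*PE and IFNγ, and 0 to 6 for that with 65–79*SE and Il-4. Of the 57 calls of named members, 45 were kept in every such fit and 12 were lost in at least 1. Pooling turned the sign of Ctss for 65–79*SE against PBS in replicates 1–3 (0.0084 with and 0.074 without the term) and of Ctsf (0.78 and 0.80) and Gusb (0.22 and 0.25) between the peptides there.

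Same-numbered libraries did not all deviate together (lowest correlation -0.126 and -0.047 with IFNγ and 0.0814 and -0.11 with Il-4, in replicates 1–3 and 4–6; 3 of 9, 5 of 9, 9 of 9 and 8 of 9 libraries correlated best with their own number), so a number is not taken as a pairing. With Il-4 most libraries did correlate best with their own number. Mitochondrial genes held 2.50, 3.73 and 7.80% of counts in PBS replicates 4, 5 and 6 of the Il-4 table. The shares were 2.12, 3.16 and 8.39% with 65–79*SE and 2.45, 3.33 and 8.52% with 65–79*PE. Libraries of the same number thus shared a difference there, which the main fit does not take into account. The replicate block gave 10 (65–79*SE) and 6 members (65–79*PE) with Il-4 in replicates 1–3, 5 and 4 in replicates 4–6, and 8 for the difference between sets with 65–79*SE and Il-4; with IFNγ it gave 23, 21 and 13 in replicates 1–3 and 9, 17 and 20 in replicates 4–6. Depth limits Ctsh in the Il-4 table, where values lay near the floor of 3 counts.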
